A study of Mus musculus with 18 samples.

Results

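Vimentin and the transcription factors of mesenchymal transition were followed across sorted mouse thyroid cells: the intermediate filament gene Vim and the factor genes Foxc2, Twist1, Twist2, Snai1, Snai2, Zeb1, Zeb2 and Prrx1. These 9 genes were chosen with earlier results of these data known. Their probes were found by name among the 27962 gene names of the array, with Zeb1 and Zeb2 also accepted under their older names Zfhx1a and Zfhx1b. Every probe was kept, 18 in all. Thyroids of C57BL/6 mice were digested with collagenase and dispase, and the cells were cultured for 2 days before sorting. They were stained with the DNA dye Hoechst, with and without verapamil, which blocks the membrane pumps that remove the dye. Cells with little dye, the side population, and the remaining cells, the main population, were collected separately. There were 6 arrays of the control side population (CSP) and 3 of the control main population (CMP), both from mice without partial thyroidectomy, and 6 arrays of the side population (TSP) and 3 of the main population (TMP) from mice with partial thyroidectomy. The labels give both sexes for every sample; the number of mice in a sample, their age and the time since surgery are not given in the sources used here. Sample RNA carried the dye Cy5. A common reference RNA of Swiss Webster mice, pooled from embryos and several organs other than thyroid, carried Cy3 on every array, and dyes were not swapped. A value is the log2 ratio of sample over reference, so levels of a gene can be compared between samples and not with those of another gene.

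Vimentin is the main intermediate filament protein of fibroblasts, endothelial cells and other mesenchymal cells, and simple keratins take its place in most epithelia. Epithelial cells that pass through an epithelial to mesenchymal transition lose E-cadherin and junction proteins and gain vimentin. The zinc finger repressors of the Snail family (Snai1, Snai2) and the Zeb family (Zeb1, Zeb2) bind E-box sequences such as CAGGTG, as in the promoter of the E-cadherin gene, and the basic helix-loop-helix factors Twist1 and Twist2 also bind E-boxes. Foxc2, a forkhead factor, and Prrx1, a paired-type homeobox factor, act in embryonic mesenchyme and can also drive the transition in cultured cells. All of these genes are also active in ordinary mesenchymal cells, so their RNA does not by itself mark a transition.

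The array probes behind the values are 60 bases long. The first 30 bases are shown for the probes on which the results turn, in the order of the files, for the single usable probe of Vim and for the 4 probes of Prrx1 that were compared.
Vim probe 2: gcagtttttcaggagcgcaagatagatttg
Prrx1 probe 2: actgaaggccaaggaatatagtttacagag
Prrx1 probe 3: ctgaaaattttcttagatgacacacacata
Prrx1 probe 4: agcgagccatgctggccaataaaaacgctt
Prrx1 probe 5: cacattacccggatgcttttgttcgagaag
In the build named in the file headers, mm7, Vim probe 2 lies at chr2:13521763-13521822 on the plus strand. The Prrx1 probes lie on the minus strand, at chr1:163209258-163209317 for probe 2, chr1:163214079-163214138 for probe 3, chr1:163218848-163218907 for probe 4 and chr1:163222856-163222915 for probe 5. Which exon or untranslated region each one lies in was not analysed here.

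Since the members differed together between the populations, the sequences before their start sites were also read. RefSeq promoter entries (GRCm38.p6) matched 6 of the 9 members, with 9 start sites. The 250 bases before the start are shown for Vim, the member with the largest difference, for Snai1, the only matched member with CAGGTG in this window, and for Twist1, which like Vim has TATAAA. Capitals mark the E-box CAGGTG, the CCAAT box and the sequence TATAAA, each on either strand.
Vim, chr2:13574061-13574310, plus strand: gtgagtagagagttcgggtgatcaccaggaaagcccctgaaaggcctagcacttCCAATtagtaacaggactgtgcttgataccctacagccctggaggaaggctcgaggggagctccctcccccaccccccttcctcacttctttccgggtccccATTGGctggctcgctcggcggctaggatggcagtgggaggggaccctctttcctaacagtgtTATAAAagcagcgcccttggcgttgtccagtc
Snai1, chr2:167537945-167538194, plus strand: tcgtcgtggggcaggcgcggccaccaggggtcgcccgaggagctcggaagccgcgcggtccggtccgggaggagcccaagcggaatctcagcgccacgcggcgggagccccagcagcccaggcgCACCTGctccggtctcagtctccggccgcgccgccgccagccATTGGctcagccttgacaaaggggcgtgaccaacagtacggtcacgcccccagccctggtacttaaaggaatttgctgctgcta
Twist1, chr12:33957421-33957670, plus strand: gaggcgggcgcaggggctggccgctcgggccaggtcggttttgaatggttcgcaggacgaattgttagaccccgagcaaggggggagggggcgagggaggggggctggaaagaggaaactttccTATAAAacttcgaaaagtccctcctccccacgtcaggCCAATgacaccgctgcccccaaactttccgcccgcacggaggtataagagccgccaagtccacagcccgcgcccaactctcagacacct
CAGGTG, searched on both strands, was in 1 of the 9 windows of the members, in Snai1 starting 126 bases before the start, and in 17.2% of 32851 windows of the same length. CCAAT was in 5 of the 9 windows and in 33.8% of all, TATAAA in 2 (Vim and Twist1) and in 12.4% of all, and GGGCGG in 5 and in 32.7% of all. Of the 9 windows 4 belong to Zeb2, and windows 2 and 3 of Zeb2 overlap and share 1 GGGCGG match, so the windows are not independent. In Vim TATAAA started 32 bases before the start. These matches describe the windows and are no evidence of binding.

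Depending on the array, 38.8% to 72% of spots rose well above background in the Cy5 channel, and 20434 gene names entered the fit. The thyroid label was checked on 14 follicular cell genes: on the CMP arrays 12 to 14 were well above background, and on the CSP arrays 3 to 13. TSP 1 and TSP 2 stood apart from their label. Their median correlation over all genes was 0.949 with the main population arrays and 0.695 with the other 10 side population arrays. Each result that rests on TSP is therefore given with all arrays and without TSP 1 and TSP 2.

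Vim separated the populations more widely than any other member. In CSP its log2 ratio ran from 2.37 through a median of 2.73 to 3.52. In CMP it was -2.28, -2.57 and -3.06. All CSP arrays lay above the reference and all CMP arrays below it. The difference was 5.46 ± 1.08 (SE) on the log2 scale, or 44.1-fold (limma, adjusted p = 0.00798). In TSP 3 to TSP 6 Vim was 2.85, 3.07, 3.03 and 3.08, and in TMP it was -1.57, -2.32 and -3.19. TSP 1 and TSP 2, at -2.64 and -2.27, lay within the TMP range. A second Vim probe was well above background on 2 arrays and was not tested.

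Foxc2, the forkhead factor known for its role in lymphatic and vascular development, came next. Its log2 ratio in CSP ran from 3.62 through 4.34 to 4.52, against -0.04, -0.69 and -0.56 in CMP. It rose 24.4-fold (4.61 ± 0.949, adjusted p = 0.00812). Foxc2 was 4.19, 4.43, 4.01 and 3.26 in TSP 3 to TSP 6, and in TMP 0.28, -0.56 and -0.95. TSP 1 and TSP 2, at -0.94 and -0.57, were again at the level of TMP.

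Both Twist genes were higher in the side population. Twist1 in CSP ran from 1.13 through 2.21 to 2.90, and in CMP it was -1.34, -1.60 and -1.55, the last not well above background. It rose 12.5-fold (3.65 ± 0.621, adjusted p = 0.00796). After surgery Twist1 was 1.82, 2.61, 0.94 and 1.36 in TSP 3 to TSP 6, against -1.0, -1.62 and -1.82 in TMP. Twist2 varied more among the CSP arrays, from -0.23 on CSP 3 through 1.54 to 2.53, and was -2.12, -2.53 and -1.55 in CMP. Its groups did not overlap, and it rose 11-fold (3.46 ± 0.835, adjusted p = 0.0118). Twist2 was 1.1, 1.63, 2.03 and 2.03 in TSP 3 to TSP 6, and in TMP -1.90, -2.67 and -1.93.

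Of the Snail repressors, Snai1 was scarcely detected outside the side population. It was well above background on all 6 CSP arrays, on 1 of 3 CMP arrays, on no TMP array, and on TSP 3 to TSP 6 but neither TSP 1 nor TSP 2. Its log2 ratio in CSP ran from 1.56 through 2.72 to 3.45, against -0.31, -0.61 and -0.38 in CMP, and it rose 8.62-fold (3.11 ± 0.543, adjusted p = 0.00796). In TSP 3 to TSP 6 it was 2.31, 2.72, 2.33 and 0.96, with TSP 6 the lowest. Snai2 (Slug) was well above background on all 18 arrays. It ran from -0.16 through 0.60 to 1.37 in CSP and was -2.17, -2.38 and -2.25 in CMP, a rise of 7.4-fold (2.89 ± 0.658, adjusted p = 0.00988). Snai2 was 0.88, -0.54, 0.56 and 0.22 in TSP 3 to TSP 6, and in TMP -1.76, -2.36 and -2.36.

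The Zeb repressors rose as well, although in CSP Zeb1 stayed close to the reference and Zeb2 mostly below it. Zeb1 ran from -0.11 through 0.42 to 1.00 in CSP and was -1.92, -2.25 and -2.26 in CMP, a rise of 6.04-fold (2.60 ± 0.581, adjusted p = 0.00943). Zeb1 was 0.37, 0.49, 0.65 and 0.79 in TSP 3 to TSP 6, and in TMP -1.19, -2.37 and -2.47. Zeb2 ran from -1.64 through -0.99 to 0.54 in CSP, where CSP 4 was the highest. In CMP Zeb2 was -4.60, -4.14 and -4.43, and the rise was 11.2-fold (3.49 ± 0.826, adjusted p = 0.0111). Zeb2 on TSP 3 to TSP 6 was -0.38, -0.02, -0.69 and -0.38, and in TMP -3.43, -4.30 and -4.40.

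Prrx1 was the member whose main probe separated the populations least. On the brightest probe, probe 4, its log2 ratio in CSP ran from 1.56 through 2.24 to 3.27, and in CMP it was 0.49, 0.69 and 1.16. These groups did not overlap, but the difference of 1.48 ± 0.518 (2.79-fold) missed the threshold with all arrays (adjusted p = 0.0613) and passed it without TSP 1 and TSP 2 (adjusted p = 0.0224). In TSP 3 to TSP 6 it was 3.03, 3.20, 1.72 and 1.31, and in TMP 0.23, 0.42 and 1.41. TSP 6 lay below TMP 3.

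**Figure D1:**
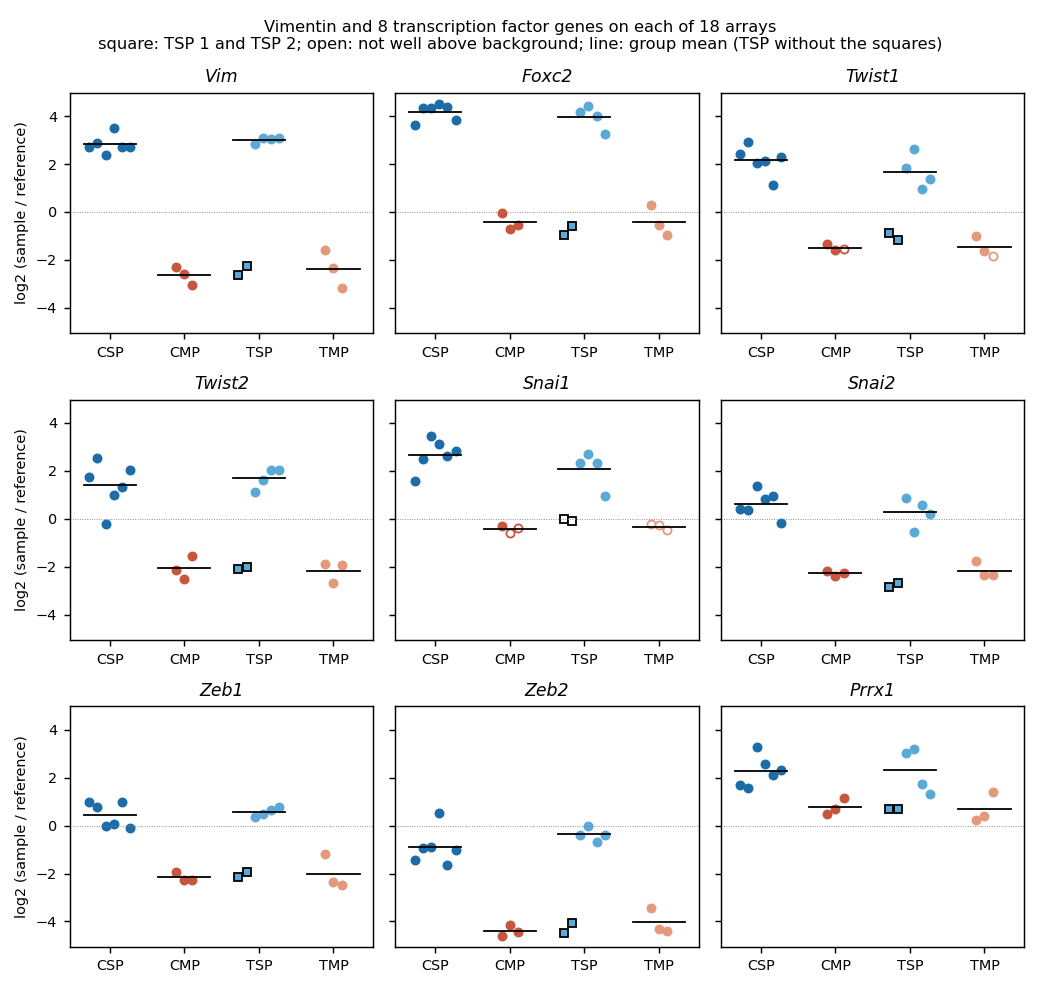
Log2 ratio of sample over reference for the 9 genes on each of 18 arrays, by group (CSP, CMP, TSP, TMP); squares are TSP 1 and TSP 2, open symbols are not well above background in Cy5, and lines are group means without the squares. CSP and TSP 3 to TSP 6 lie above CMP and TMP for 8 of the genes without overlap, and the squares lie with the main population, as for Vim at -2.64 and -2.27.

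In the control comparison 8 of 9 members rose (limma, adjusted p under 0.05 over 20434 genes), where 14.9% of all genes were called, 7.62% as higher. For all 9 members the lowest CSP array lay above the highest CMP array, which held for 11.1% of all genes in this direction. The median difference of the members was 3.46 on the log2 scale and that of all genes 0.06. Because the members were chosen with earlier results of these data known, their counts describe the samples and are no independent support. With TSP 1 and TSP 2 left out of the shared spread, 9 of 9 rose, where 19.3% of all genes were called, 10.2% as higher. The 95% intervals of neighbours in the order of size overlapped, as for Vim (4.81 to 6.11) and Foxc2 (3.95 to 5.26) in that fit, so the order within the list is not settled. Fewer cells of a type and less RNA per cell cannot be told apart in these sorted bulk samples. The calls leaned on single CMP arrays: without CMP 2 only 4 members were called (Vim, Foxc2, Twist1 and Snai1) and 569 genes in all, without CMP 1 Twist2 and Zeb2 were lost, and without any 1 of TSP 1 to TSP 4 Prrx1 was called. Once TSP 1 and TSP 2 were left out, leaving out any other array gave 8 or 9. Slide 4 was the only slide with both groups, with 2 CSP arrays and 1 CMP array. There the differences ran from 1.55 (Prrx1) to 5.30 (Vim), 9 of 9 above 0.

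After partial thyroidectomy the same comparison depended on TSP 1 and TSP 2. With all arrays none of the 9 members was called between TSP and TMP by limma, although all 9 had an unadjusted p under 0.05. None of the 20434 genes was called either (2795 at an unadjusted p under 0.05), and the 9 differences ran from 1.09 (Prrx1) to 3.55 (Vim). The groups did not overlap for Snai1 alone, where 1.46% of all genes lay higher without overlap. That gap lay between TSP 1 and TSP 2 (-0.01 and -0.11) and the highest TMP array (-0.23), none of them well above background. It is therefore not read as a separation. Without TSP 1 and TSP 2 all 9 rose, where 14.7% of all genes were called, 7.68% as higher. Vim was then 41.3-fold higher (5.37 ± 0.334), Foxc2 20.9-fold (4.39 ± 0.335), Twist2 14.6-fold (3.87 ± 0.485), Zeb2 12.8-fold (3.68 ± 0.399) and Twist1 8.97-fold (3.16 ± 0.392). Zeb1 was 5.99-fold higher, Snai2 5.43-fold and Prrx1 3.09-fold (adjusted p = 0.0253). No TMP array measured Snai1 well above background. Its log2 ratio averaged 2.08 in TSP 3 to TSP 6 and -0.32 in TMP, a difference of 2.40 (limma, adjusted p = 0.000494). In the Cy5 channel, after a normalisation that also used the Cy3 signals, Snai1 averaged 9.65 on the log2 scale in TSP 3 to TSP 6. TMP averaged 7.04, or 7.06 with values raised to a floor, a 6.02-fold difference. The floor was the lowest Cy5 signal well above background on each array. The TMP values lay close to background, so 6.02 is an estimate and no lower bound. It describes the Cy5 signal and not the ratio, whose log2 difference of 2.40 is 5.29-fold. The groups did not overlap for 8 of the 9, the exception being Prrx1, where 12.6% of all genes lay higher without overlap. Single arrays decided calls here too. Leaving out TSP 1 alone or TSP 2 alone gave 7 calls, and without both, Prrx1 was lost when TSP 3, TSP 4, TMP 1 or TMP 2 was also left out. Slide 5, with 2 TSP arrays and 1 TMP array, gave differences from 0.10 (Prrx1) to 6.25 (Vim), all above 0.

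**Figure D2:**
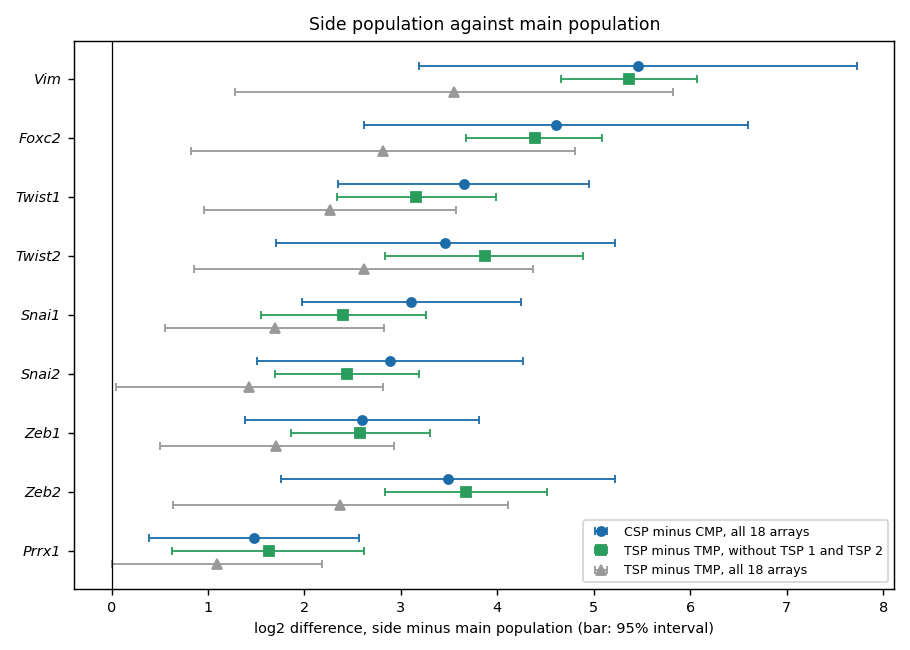
Log2 difference between side and main population for each member with its 95% interval, for CSP minus CMP with all 18 arrays (circles) and TSP minus TMP without (squares) and with (triangles) TSP 1 and TSP 2. Vim lies furthest right at 5.46 and 5.37 and Prrx1 lowest at 1.48 and 1.63, and every triangle lies left of its square.

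Between mice with and without surgery none of the members passed the threshold with all arrays or without TSP 1 and TSP 2. Within the main population the TMP minus CMP differences of the 9 ran from -0.10 (Twist2) to 0.35 (Zeb2), and the arrays of the groups overlapped for every member, where 1.82% of all genes lay higher and 1.21% lower without overlap. None of 20434 genes was called by limma (25 at an unadjusted p under 0.05), and the widest 95% intervals reached -2.34 and 2.90, or -1.20 and 1.24 without TSP 1 and TSP 2 in the shared spread. CMP and TMP arrays of the same number shared a slide and deviated together, but the fit and its intervals did not use this pairing. With the replicate number as a block none was called either. That block also joined CSP and TSP arrays, whose numbers were not taken as pairs, and a fit of the CMP and TMP pairs alone was not run. Within these pairs the differences ran from -0.26 to 1.17 on slide 2, from -0.27 to 0.34 on slide 4 and from -0.39 to 0.25 on slide 5. Within the side population all 9 differences of TSP minus CSP lay below 0 with all arrays, from -1.78 (Foxc2) to -0.48 (Prrx1), and none was called, nor was any gene (1860 at an unadjusted p under 0.05). Without TSP 1 and TSP 2 they ran from -0.60 (Snai1, 95% interval -1.32 to 0.13) to 0.53 (Zeb2, -0.18 to 1.24), 5 of 9 above 0. In that fit no member was called by limma, nor was any gene (701 at an unadjusted p under 0.05). The sign thus turned for Vim, Twist2, Zeb1, Zeb2 and Prrx1 (0.18, 0.30, 0.13, 0.53 and 0.05). With all arrays and the slide as a block, Snai1 (-1.36, adjusted p = 0.0251) and Snai2 (-1.63, adjusted p = 0.0487) fell, among 897 genes called by limma, and with the slide as a random block Snai1 fell (-1.34, adjusted p = 0.0498), among 241. With the slide as a block and without TSP 1 and TSP 2 no member was called, where 18 of the 20434 genes were. On slide 1, which held TSP 1, TSP 2, CSP 1 and CSP 2, the differences ran from -5.25 to -0.92 and all 9 were called, among 8325 of the 20434 genes. On slide 3, with TSP 3, TSP 4, CSP 3 and CSP 4, they ran from -0.91 to 0.99 and none was called, nor was any gene. The interaction of surgery and population ran from -1.92 to -0.39 for the members with all arrays and from -0.70 to 0.40 without TSP 1 and TSP 2. None of the members and no gene was called by limma in either fit, and with all arrays 220 genes had an unadjusted p under 0.05.

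Several members had more than 1 probe, and the probes of Prrx1 disagreed in size. Of the 18 probes 15 were well above background on at least 3 arrays and were tested in a fit of 29771 probes. All 15 were higher in CSP than in CMP, and 12 passed the threshold, where 13.2% of all probes did. On Prrx1 probe 2 the CSP arrays lay between 3.01 and 4.19 and the CMP arrays between -0.56 and -0.38, only 1 of which was well above background. Its difference was 3.95 ± 0.744 (adjusted p = 0.00899), against 1.48 ± 0.518 on probe 4. Probe 5 differed by 2.94 ± 0.594 (adjusted p = 0.00899) and probe 3 by 0.49 ± 0.289 (adjusted p = 0.29). Thus 2 of the 4 tested probes of Prrx1 were called in the control comparison and 3 of 4 after surgery without TSP 1 and TSP 2, where 12.7% of all probes were called. In TMP probes 2 and 5 were not well above background on any array. Their log2 ratios differed by 3.62 and 2.62 between TSP 3 to TSP 6 and TMP. In the Cy5 channel, which is normalised differently, TSP 3 to TSP 6 were 14.9-fold and 6.78-fold above TMP values raised to the floor. These are estimates near background and no lower bounds. The values of TSP 1 and TSP 2, -0.65 and -0.35 on probe 2, lay with the main population. Whether probes of Prrx1 read different transcripts was not tested.

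The 4 probes of Zeb2 all lay higher in CSP than in CMP. Probe 2, the brightest and the one used above, and probe 3 differed by 3.49 ± 0.824 and 3.54 ± 0.766 (adjusted p = 0.0126 and 0.0101). Probe 4 differed by 2.40 ± 0.613 (adjusted p = 0.0167) and probe 1 by 1.59 ± 0.537 (adjusted p = 0.0581), so that 3 of 4 were called. All 4 were called after surgery without TSP 1 and TSP 2, where 12.7% of all probes were called. Probes 2 to 4 differed by 3.06 to 3.68. Probe 1, at 1.93, was not well above background on any TMP array. In the Cy5 channel it averaged 9.14 on the log2 scale in TSP 3 to TSP 6 and 7.38 in TMP, a 3.39-fold difference. The floor did not change the TMP mean, so this is no lower bound. Probe 4 was well above background on 1 of 3 CMP arrays and 1 of 3 TMP arrays. On probe 1 and probe 2 CSP 4 was the highest CSP array, at 1.31 and 0.54. On probe 3 it stood at 1.70, within the range of the others, and on probe 4 at -0.55, the lowest.

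**Figure D3:**
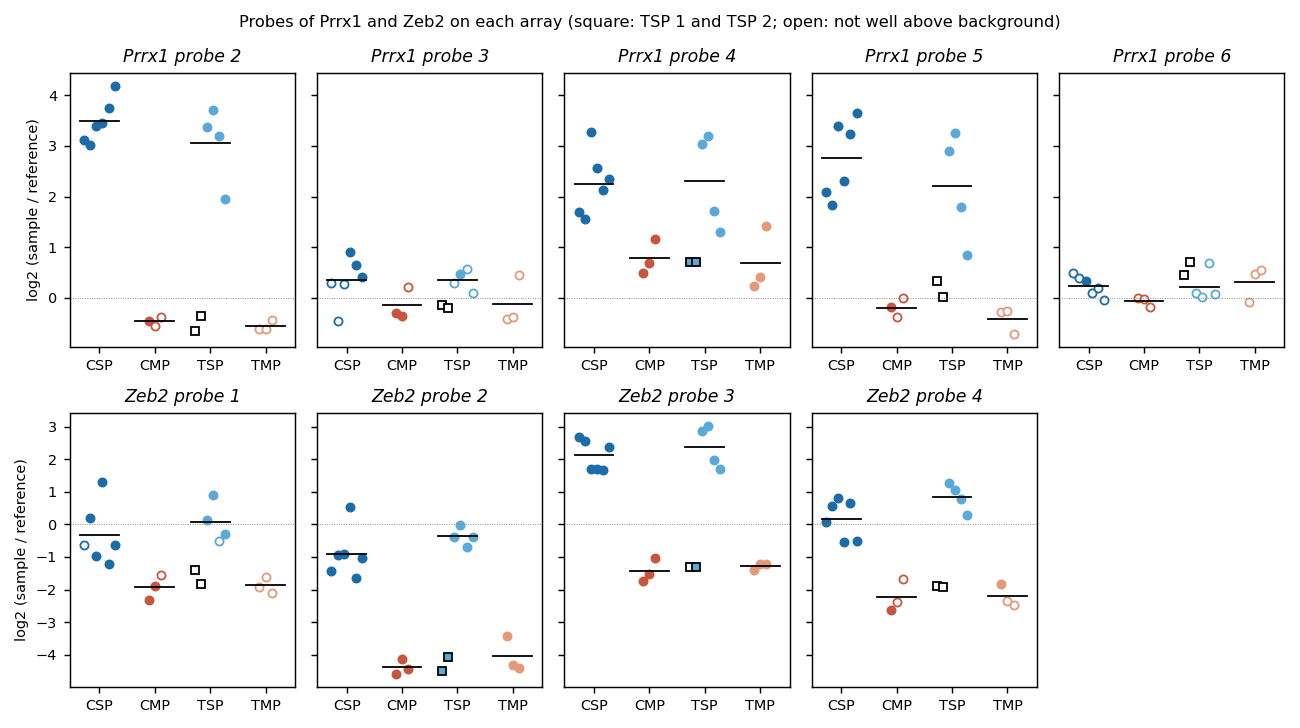
Log2 ratio of sample over reference on each array for 5 probes of Prrx1 and 4 of Zeb2, by group; squares are TSP 1 and TSP 2, open symbols are not well above background, and lines are group means without the squares. Prrx1 probe 2 separates the populations by 3.95 on the log2 scale in the controls and probe 4 by 1.48, while probe 3 stays within 0.91 of the reference on every array.

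The partners and relatives of the Twist factors did not move as a group. Of 13 listed basic helix-loop-helix and Id genes 10 were tested in the control comparison, and 2 rose and 2 fell. Of all genes 7.62% rose and 7.25% fell. The median difference was 0.92, against 0.06 for all genes. Tcf15 (paraxis, a close relative of Twist1) rose 5.81-fold and Tcf4 (E2-2, a dimer partner of Twist proteins) 5.12-fold. Scx (scleraxis, a tendon regulator of the same family) fell 12.6-fold and Id4, an inhibitor that captures such partners, 4.38-fold. Without TSP 1 and TSP 2, 4 rose and 2 fell, and without CMP 2 alone 1 rose.

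Among 28 tested transcription factors of other mesenchyme, 16 rose and none fell in CSP against CMP, with a median of 1.56. For these and the lists that follow, 7.62% of all genes rose and 7.25% fell. The largest were Ebf3 (20.9-fold), Foxc1, the close relative of Foxc2 (18.3-fold), and Gli3, a Hedgehog pathway effector (12.1-fold). Of 17 tested inducers and modulators of the transition, 4 rose and none fell: Tgfb2, a TGF-beta ligand (5.18-fold), Bambi, a decoy receptor (4.94-fold), Smad7, an inhibitory Smad (4.55-fold), and Tgfb1 (2.21-fold). Tgfbr1 and Tgfbr2, the TGF-beta receptors, were not called (1.22-fold and 1.09-fold). Of 26 tested products of mesenchymal cells 14 rose and none fell, with a median of 1.73. Mmp9, a gelatinase, rose 16.8-fold, Fbn1 (fibrillin) 9.98-fold and Postn (periostin) 8.64-fold, and Cdh2 (N-cadherin) rose 3.58-fold. Fn1 (fibronectin) went the other way without passing the threshold, at -1.20 in CSP and -0.29 in CMP (adjusted p = 0.0666). So did Tgfbi (4.61-fold lower), Wnt5a (1.46-fold) and Tnc (1.23-fold), none of them called. S100a4 (1.9-fold), Acta2 (1.41-fold) and Tagln (1.38-fold) were higher in CSP and not called either.

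Epithelial genes, which are lost in the transition, went the other way. Of 22 listed, all tested, 21 fell and none rose in CSP against CMP, where 7.25% of all genes fell, with a median of -2.55. Cdh1 (E-cadherin), whose log2 ratio averaged 3.90 in CMP and 0.23 in CSP, fell 12.6-fold (-3.66 ± 0.878, adjusted p = 0.0117). Dsp (desmoplakin, of desmosomes) fell 16.7-fold and Marveld3, a tight junction gene, 9.9-fold; Ovol2, itself a repressor of Zeb1, was the gene not called (1.35-fold, adjusted p = 0.271). Among the other 20 intermediate filament genes 6 fell and 1 rose, where 7.25% of all genes fell and 7.62% rose. The keratins of simple epithelia fell most, Krt8 by 25.8-fold, Krt18 by 15.6-fold and Krt7 by 9.81-fold, and Synm (synemin, a partner of vimentin and desmin in filaments) rose 5.05-fold. Des (desmin), Gfap and Prph, which with Vim form 1 class of filament proteins, were not called (1.57-fold, 1.11-fold and 1.17-fold).

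After surgery, TSP 3 to TSP 6 against TMP gave like counts, where 7.68% of all genes rose and 7.02% fell. Here 14 of 28 other mesenchyme factors and 15 of 26 mesenchymal products rose, and 20 of 22 epithelial genes fell. None of these lists had a call in the other direction. Between TSP 3 to TSP 6 and CSP, and between TMP and CMP, no gene of any list was called, nor was any of the 20434 genes. The lists were written with earlier results of these data in view, so their counts describe the samples and are no independent support. The counts of the control comparison also leaned on single arrays: without CMP 2, 5 mesenchyme factors and 1 mesenchymal product rose, 4 epithelial and no filament genes fell and no inducer rose, and without CMP 1 these counts were 6, 4, 7, 2 and 2. Without TSP 6, 2 filament genes rose, and 1 mesenchymal product fell without TSP 5 and 2 without both TSP 1 and TSP 2. Without CMP 3, 6 mesenchymal products rose, 3 filament genes fell and 2 inducers rose. Among all the settings run, 1 left no mesenchyme factor called as higher, and 1 left no mesenchymal product called as higher. Without CMP 1 or CMP 2, 1 of the Twist relatives fell and Synm was not called; without TSP 1 or without TSP 2, 4 rose.

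**Figure D4:**
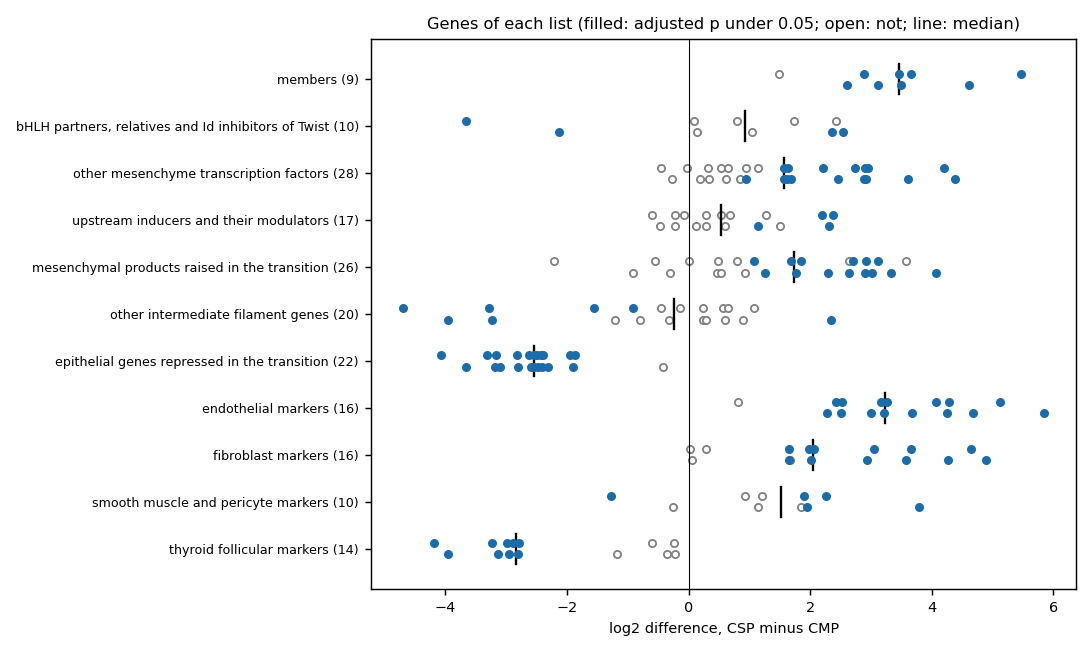
Log2 difference of CSP minus CMP for each tested gene of the members and of 10 gene lists, with the number tested in parentheses; filled points passed an adjusted p of 0.05, open points did not, and vertical lines are medians. The members lie at a median of 3.46, the endothelial markers at 3.23, the fibroblast markers at 2.04 and the epithelial genes at -2.55.

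Markers of several cell types moved with the members, in a comparison where 7.62% of all genes rose and 7.25% fell. Of 16 endothelial markers 15 rose in CSP against CMP, led by Ackr1 (57.6-fold), Vwf (34.9-fold) and Emcn (25.7-fold), and all 16 were well above background on every CSP array. Of 16 fibroblast markers 12 rose, led by Pdgfrb (29.7-fold), Lum (24.9-fold) and Dcn (19.2-fold). The mean log2 ratio of the endothelial list ran from 0.91 to 2.47 on the CSP arrays and from 0.93 to 2.03 on TSP 3 to TSP 6, against -2.07 to -1.48 in CMP and -1.94 to -1.36 in TMP. That of the fibroblast list ran from -1.35 to 0.43 in CSP and -0.43 to 0.30 on TSP 3 to TSP 6, against -3.09 to -2.59 in CMP and -3.04 to -2.38 in TMP. Of 10 smooth muscle and pericyte markers 4 rose, led by Cspg4 (13.9-fold), Kcnj8 (4.8-fold) and Notch3 (3.85-fold), and Cnn1 fell. Of 14 follicular cell markers 9 fell, among them Cdh16 (18.2-fold) and Dio1 (9.35-fold), and their mean ran from -0.43 to 1.08 in CSP against 1.90 to 2.31 in CMP. On TSP 1 and TSP 2 the endothelial, fibroblast and follicular means (-1.81 to -1.77, -2.67 to -2.64 and 2.14 to 2.17) were those of main population arrays. Of the 14 macrophage markers Cd14 rose and Lyz2 and Cd68 fell, of 8 Schwann cell markers Erbb3 fell, and none of the lymphocyte, skeletal muscle or adipocyte markers was called with all arrays. Without CMP 1 or CMP 2 fewer markers rose (15 endothelial became 4 without CMP 2, and 12 fibroblast 6 and 4), fewer follicular markers fell (3 and 2), 1 pericyte marker rose and Erbb3, Cd14, Lyz2 and Cd68 were not called. Without CMP 3 neither Cd68, Lyz2 nor Cnn1 was called, Cnn1 was also lost without CMP 1 or CMP 2, 1 macrophage marker fell without CSP 4, and 1 adipocyte marker rose without TSP 1 or without TSP 2. Fewer pericyte markers also rose without CSP 3 or CMP 3 (2 each), while 7 rose without TSP 1 and TSP 2 together. The part of the marker genes in the differences of the members was not tested.

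Among the side population arrays themselves the mean of the endothelial list minus that of the fibroblast list fell into separate sets. It lay between 2.39 and 3.56 on 5 arrays (CSP 1, CSP 3, CSP 5, TSP 3 and TSP 5) and between 0.78 and 1.32 on the other 5 (CSP 2, CSP 4, CSP 6, TSP 4 and TSP 6). The first set holds the odd-numbered arrays and the second the even-numbered ones, and each slide with side population arrays held both kinds. The labels name no difference between them. With such sets of 5 no correlation of the members with this difference is read across the 10 arrays. Snai2 ran from 0.39 to 1.37 (median 0.88) in the first set and from -0.54 to 0.81 (median 0.22) in the second. Vim ran from 2.37 to 3.03 (median 2.73) and from 2.73 to 3.52 (median 3.07), and Twist2 from -0.23 to 2.03 (median 1.32) and from 0.98 to 2.53 (median 2.02). The sets overlapped for all 9 members. Neither set came near the main population, where Vim was at most -1.57.

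**Figure D5:**
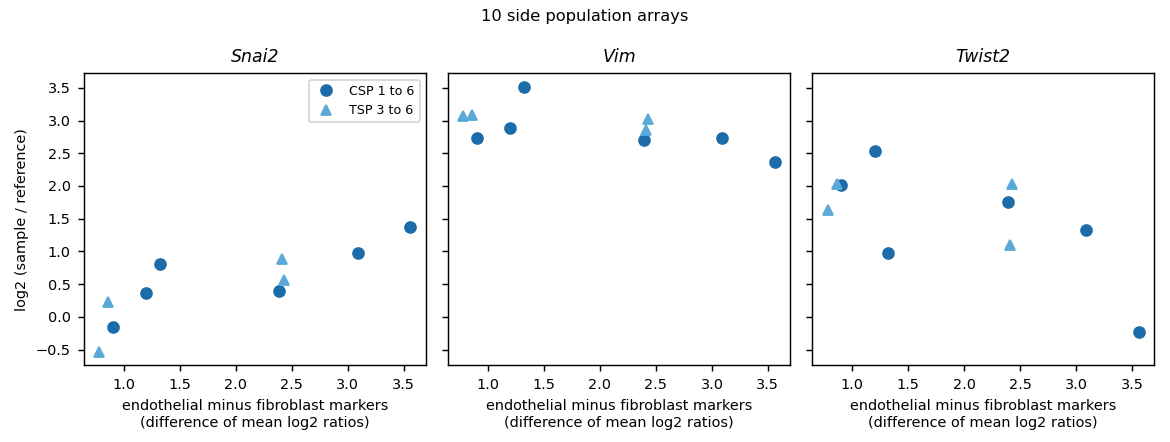
Log2 ratio of Snai2, Vim and Twist2 (vertical axis) against the mean log2 ratio of the endothelial markers minus that of the fibroblast markers (horizontal axis) on 10 side population arrays, CSP 1 to CSP 6 (circles) and TSP 3 to TSP 6 (triangles). The arrays lie in 2 sets of 5, at 0.78 to 1.32 and at 2.39 to 3.56, and each gene's values overlap between the sets; these 3 genes were chosen after their values were seen.

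The genes whose pattern over the 10 side population arrays was most like that of a member were read from 19995 genes measured on all arrays, as a description with no test. For Vim they were Gnpnat1 (r = 0.977), Inpp5a (0.96), the forkhead factor gene Foxd1 (0.942) and Tiam2 (0.939). For Foxc2 they were the olfactory receptor genes Olfr462 (0.945), Olfr352 (0.938) and Olfr609 (0.922) and A230106M20Rik (0.919). For Twist1 they were Chek1 (0.945), Mrpl21 (0.938), Mthfd2 (0.933) and the transcript ENSMUST00000085121 (0.932), and for Prrx1 Rock2 (0.975), TC1435794 (0.96), Bmp2 (0.958) and Fjx1 (0.947). Snai2 was most like Mef2a (0.965), Zfp119a (0.964), Evi1 (0.944) and P3h2 (0.941), and Zeb2 most like Aldh6a1 (0.945), Cryzl1 (0.934), Serpini1 (0.931) and Prdx3 (0.929). No member was among the closest genes of another. All 10 arrays share the reference RNA and fall into the sets of 5 described above. These are the highest values among 19995 genes over 10 arrays, and how high they would run with no relation was not tested.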

How the data were processed

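Scanner files of 18 two-colour arrays were used. Their mean signals and local backgrounds are raw intensity per the file headers. The log10 ratio and flags were made with Agilent Feature Extraction (9.5.1.1 per the file headers, 8.5.1.1 per the submitters' processing notes), and the deposited log2 values by the authors, of unstated normalization, served as alternatives. With limma 3.58.1 in R 4.3.3, signals were background corrected (normexp, offset 50) and loess normalized within arrays, with controls at weight 0. Outlier spots were left out, spots of a probe averaged, and the brightest of a gene's probes stood for it, with probes kept if above background in Cy5 on 3 or more arrays. A model of 4 group means over all 18 arrays gave 5 contrasts, adjusted by Benjamini-Hochberg over all 20434 genes; calls are at adjusted p under 0.05. The fit was tested on simulated data. An interval is at 95%. The number of arrays limits the precision, and a p value measures only the spread between these samples, which the design text calls biological replicates.

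The members and gene lists were chosen with earlier results of these data known. Named are all members and probes, Cdh1 and Fn1, and the 4 genes most like each of 6 members. Per list the 3 genes with the largest called difference in each direction in CSP minus CMP are named too. Tgfb1, Tgfbr1, Tgfbr2, Cdh2, Tgfbi, Wnt5a, Tnc, S100a4, Acta2, Tagln, Ovol2, Des, Gfap and Prph were added after their values were seen. 1 gene that this rule names is not reported here. Same-numbered CMP and TMP arrays, which share a slide per the file headers, deviated together (correlations of 0.666, 0.742 and 0.808). These numbers were therefore taken to pair the samples, although the model of group means did not use the pairs. For TSP and CSP the correlations ran from -0.0522 to 0.464, over 0.1 for numbers 3, 4 and 5 only, and in the other comparisons too not every pair exceeded 0.1, so those numbers were not taken as pairs. Slides were alternatives as blocks. Promoters are from RefSeq; no genome was used. Python 3.11.15, pandas 2.3.3 and matplotlib 3.10.9 made the summaries and figures.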

Additional observations from a re-analysis of the deposited data

Results flagged for a closer look

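Among the 18 sets of 6 arrays (9 members in CSP and in TSP), 1 value stood far from the others of its group: Zeb2 on CSP 4, at a log2 ratio of 0.54, where the next highest CSP array was at -0.91. Chance sets such a value apart in about 1 of 20 sets. In every TSP set the lowest arrays were TSP 1 and TSP 2, which lay together. A search for 1 far value cannot set such a pair apart, and the wide range they give hides other values. The TSP sets are therefore not read as free of far values. On Zeb2 probe 1 CSP 4 was also the highest CSP array, at 1.31, and on probes 3 and 4 it was not.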

How the results depend on the processing

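All 9 members lay higher in CSP than in CMP, and in TSP than in TMP, under every alternative run. For CSP minus CMP, 8 were called with all arrays, 4 with arrays scaled to each other, 0 within slide 4, and 4 to 9 when an array was left out. For TSP minus TMP, 0 were called with all arrays, 1 with the slide as a block, 9 without TSP 1 and TSP 2, 9 without slide 1, 9 with array weights, 8 with the slide as a block and without TSP 1 and TSP 2, 7 within slide 5 (318 genes), and 0 to 9 when an array was left out, with or without TSP 1 and TSP 2. For TSP minus CSP, 0 were called with all arrays, 2 with the slide as a block, 1 with it as a random block and 9 within slide 1 (8325 genes), all of them lower in TSP. Slides 4 and 5 each hold 1 main population array per group, so the fits within them assume that it varies like the other group. Calls or their absence on these slides are not read as results about the members. Genes called in CSP minus CMP numbered 3040, against 605 with scaling, 569 without CMP 2, 1145 without CMP 1, 1998 with the replicate block, 5758 and 5351 with the slide as a fixed and a random block, and 5784 with array weights. In TSP minus TMP the count was 0, against 224 and 10 with the slide as a fixed and a random block, 508 without TSP 1 and 609 without TSP 2. It was 3005 without both, 3215 without both and with the slide as a block, 2865 without slide 1 and 1979 with array weights. In TSP minus CSP the count was 0, against 897 and 241 with the slide as a fixed and a random block. With the replicate number as a block 7 members were called in CSP minus CMP; it changed no other count of members, and only the CMP and TMP numbers pair samples.

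The planned relation to the endothelial minus fibroblast difference, which is not read because of the 2 sets of 5 arrays, called 1 member (Snai2), 0 on the CSP arrays alone, 0 without the 2 farthest arrays, and 0 to 1 when an array was left out; within slide 3, with 4 arrays, it was not run. The cause of these changes was not tested.

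Signs that turned in TSP minus CSP, besides those given without TSP 1 and TSP 2 (Vim 0.18, Twist2 0.30, Zeb1 0.13, Zeb2 0.53, Prrx1 0.05), were: scaled, Prrx1 0.12; without slide 1, Vim 0.17, Twist2 0.67, Zeb1 0.34 and Zeb2 0.39; with the slide as a block without these arrays, Vim 0.35, Twist2 0.49, Zeb1 0.38 and Zeb2 0.32; within slide 3, Vim 0.02, Twist1 0.12, Twist2 0.99, Zeb1 0.40 and Prrx1 0.20. The small differences of TMP minus CMP and of the interaction, given above only as ranges, changed sign in 30 and 11 of the values recomputed. The lists depend on the same arrays as the members. Signal limits Snai1 and Twist1, which were not well above background on some main population arrays, the probes of Prrx1 other than probe 4, and probes 1 and 4 of Zeb2.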
